A study of Mus with 96 samples.

Results

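The 8 genes described here encode the enzymes and carriers of the urea cycle, and they were taken by name from a table of 55487 genes counted in mouse liver. All 8 passed the filter of at least 100 counts over the 96 libraries, as did 15548 genes in all. The mice carried loxP-flanked Bmal1 (Bmal1flx/flx) on a C57BL/6J background. Those labelled Hep-Bmal1KO also carried 1 Alb-Cre allele (AlbCre/+), which deletes Bmal1 in hepatocytes, and their littermates labelled Hep-Bmal1WT carried none (Alb+/+). Mice were 8 to 10 weeks old, of both sexes, lived in 12 hours of light and 12 hours of darkness, and for 2 weeks ate normal chow (NC) or a fat-rich diet lacking choline (cdHFD). Each genotype and diet held 24 mice, 4 at each of Zeitgeber time (ZT, hours after lights on) 2, 6, 10, 14, 18, and 22. Per the labels, NC held 27% protein, 14% fat, and 59% carbohydrate, and cdHFD held 9% protein, 60% fat, 31% carbohydrate, 2% cholesterol, and 0.17% methionine. Choline, fat, carbohydrate, cholesterol, and protein thus all differed as labelled, and the parts of these components in a diet difference cannot be told apart. The deletion was designed for hepatocytes, and whether other liver cells of the Hep-Bmal1KO mice kept Bmal1 was not measured in these whole livers.

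The urea cycle turns ammonia, released when amino acids are broken down, into urea that the kidney excretes. It runs mainly in hepatocytes near the portal vein. In mitochondria, N-acetylglutamate synthase (Nags) makes the activator that carbamoyl phosphate synthetase (Cps1) requires, Cps1 joins ammonia to bicarbonate, and ornithine transcarbamylase (Otc) passes the product to ornithine to give citrulline. The carrier Slc25a15 brings ornithine in and takes citrulline out, and the carrier Slc25a13, called citrin, supplies the cytosol with aspartate. In the cytosol argininosuccinate synthetase (Ass1) joins citrulline to aspartate, argininosuccinate lyase (Asl) splits the product into arginine and fumarate, and arginase (Arg1) releases urea and returns ornithine. The amounts of these enzymes are known to follow protein intake and hormones such as glucagon and glucocorticoids.

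In the GRCm38 (mm10) build, the genes lie at chromosome 1 67122426-67231267 (Cps1, ENSMUSG00000025991), X 10252230-10321024 (Otc, ENSMUSG00000031173), 2 31470270-31520670 (Ass1, ENSMUSG00000076441), 5 130011258-130024381 (Asl, ENSMUSG00000025533), 10 24915207-24927470 (Arg1, ENSMUSG00000019987), 11 102145513-102149528 (Nags, ENSMUSG00000048217), 8 22375550-22398621 (Slc25a15, ENSMUSG00000031482), and 6 6041218-6217304 (Slc25a13, ENSMUSG00000015112). Counts were taken over whole genes, so exons and UTRs are not told apart.

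The libraries held 1861740 to 9718615 counts on genes and were made by BRB-seq, a method that reads the 3′ part of each mRNA. Levels are in CPM (library sizes adjusted by TMM), and since only 3′ ends were read, levels were not compared between genes. The targeted gene Arntl (Bmal1) had an amplitude of 1.44 ± 0.133 (SE, n = 24) in Hep-Bmal1WT and 0.379 ± 0.158 in Hep-Bmal1KO livers on NC, on the log2-like scale of DESeq2's variance-stabilizing transformation, but its mean over the day differed by only 0.02 (log2, SE 0.25, edgeR adjusted p = 0.976). The genotype difference in its rhythm passed the test (edgeR adjusted p = 0.00935). On NC, Arntl averaged 20.25 CPM in Hep-Bmal1WT and 9.83 CPM in Hep-Bmal1KO at ZT2, and 0.748 and 5.77 CPM at ZT10. On cdHFD its mean over the day differed by -0.497 (log2, SE 0.195, edgeR adjusted p = 0.104). Where in the gene its reads lay was not examined, and its mean over the day was not taken as a check of the labels. In 7 of the 96 libraries, the levels of 10 clock genes and of 20 other genes were both nearer the other genotype than the label, namely 2 in each of the Hep-Bmal1WT groups, 2 in Hep-Bmal1KO on NC, and 1 in Hep-Bmal1KO on cdHFD. They are called discordant below, they stayed in under their labels, and results are also given without them. The 20 genes were picked by their genotype difference in these data, so leaving these libraries out is no independent check of a genotype difference. Without them, genotype calls over all genes rose from 1960 to 2656 on NC and from 1494 to 2024 on cdHFD. Mouse numbers ran in separate ranges for each ZT and, within every ZT, for each diet, so neither ZT nor diet can be told apart from the mouse number range, while the genotypes were mixed within ranges, and each of the 12 plate columns held 1 genotype and 1 diet, so plate column cannot be told apart from either.

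Levels of all 8 genes were lower on cdHFD than on NC, in both genotypes. The comparison asks how the diet changed each gene when mice of the same genotype and ZT are set side by side. Otc fell most clearly. In Hep-Bmal1WT livers it ranged from 589 to 874 CPM with a median of 751 CPM on NC, and from 207 to 345 CPM with a median of 274 CPM on cdHFD. No cdHFD liver reached the lowest NC liver. The log2 difference was -1.44 (SE 0.0487, adjusted p = 4.98e-30 by the edgeR quasi-likelihood test, Benjamini-Hochberg over 15548 genes). In Hep-Bmal1KO livers Otc ranged from 578 to 988 CPM on NC and from 132 to 370 CPM on cdHFD, again without overlap, and the log2 difference was -1.67 (SE 0.073, edgeR adjusted p = 1.6e-25).

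**Figure D1:**
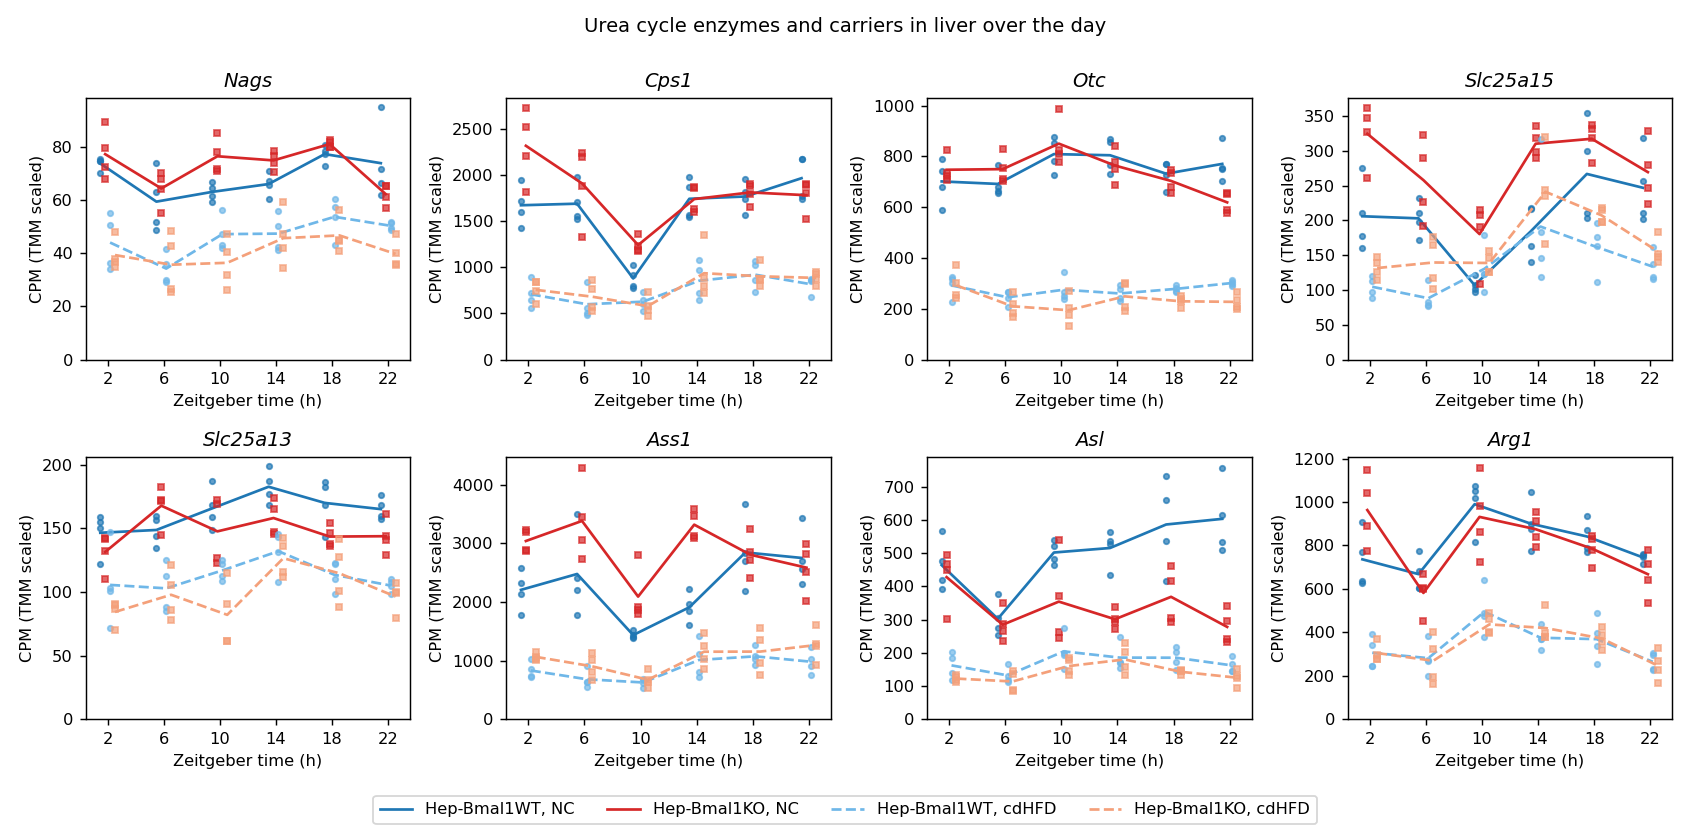
CPM (TMM scaled, y axis from 0) of each gene against Zeitgeber time (x axis, hours). Points are single livers, offset sideways by group, and lines join the means of 4 livers per time for Hep-Bmal1WT (circles) and Hep-Bmal1KO (squares) on NC (solid lines) and cdHFD (dashed lines). Within each genotype the cdHFD points lie below the NC points at every time for 6 genes, and overlap with them at some times for Slc25a15 and Slc25a13. The share of all genes with such a separation at every time was not counted.

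The other enzymes of the mitochondrial steps fell as well. Cps1 had a median of 1710 CPM (range 775 to 2172) on NC and 728 CPM (range 484 to 1083) on cdHFD in Hep-Bmal1WT livers. The ranges overlapped over the day as a whole, because NC livers at ZT10 were low, but at each of the 6 ZTs all 4 cdHFD livers were below all 4 NC livers. The log2 difference was -1.07 (SE 0.0784, edgeR adjusted p = 6.63e-17) in Hep-Bmal1WT and -1.18 (SE 0.0767, edgeR adjusted p = 5.97e-19) in Hep-Bmal1KO. Nags, which supplies the activator of Cps1, had medians of 68.7 CPM on NC and 48.1 CPM on cdHFD in Hep-Bmal1WT, and 72.1 and 40.7 CPM in Hep-Bmal1KO. Its log2 differences were -0.58 (SE 0.0605, edgeR adjusted p = 8.44e-12) and -0.84 (SE 0.0677, edgeR adjusted p = 1.4e-15).

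The cytosolic enzymes fell by amounts near that of Otc. In Hep-Bmal1WT livers, Ass1 had a median of 2220 CPM (range 1386 to 3668) on NC and 834 CPM (range 527 to 1414) on cdHFD. Only the highest cdHFD liver exceeded the lowest NC liver. Asl had medians of 516 CPM (range 252 to 756) and 169 CPM (range 111 to 274), and Arg1 had medians of 775 CPM (range 606 to 1074) and 338 CPM (range 198 to 639). For each of these 2 genes 23 of 24 cdHFD livers lay below the lowest NC liver. The log2 differences were -1.38 (SE 0.0855) for Ass1, -1.504 (SE 0.0798) for Asl, and -1.24 (SE 0.0716) for Arg1, with edgeR adjusted p of 1.68e-19, 3.47e-22, and 9.47e-21. In Hep-Bmal1KO livers they were -1.48 (SE 0.0858), -1.26 (SE 0.0925), and -1.24 (SE 0.0835), with edgeR adjusted p of 8.24e-21, 6.01e-17, and 2.56e-18.

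Both carriers fell less than Otc, Cps1, and the cytosolic enzymes, and in Hep-Bmal1WT by amounts near that of Nags (-0.58). Slc25a13 had medians of 160 CPM (range 122 to 199) on NC and 110 CPM (range 71.7 to 147) on cdHFD in Hep-Bmal1WT, a log2 difference of -0.53 (SE 0.0541, edgeR adjusted p = 4.21e-12), and a difference of -0.58 (SE 0.0691, edgeR adjusted p = 2.87e-10) in Hep-Bmal1KO. Slc25a15 had medians of 207 CPM (range 97.7 to 354) and 119 CPM (range 77.4 to 317), so that its ranges overlapped widely. Its log2 differences were -0.57 (SE 0.119, edgeR adjusted p = 5.54e-05) in Hep-Bmal1WT and -0.72 (SE 0.084, edgeR adjusted p = 1.6e-10) in Hep-Bmal1KO. The ratio of the cdHFD to the NC mean of Slc25a15 in Hep-Bmal1WT ran from 0.434 to 1.22 over the 6 ZTs and was under 1 at 4 of them, whereas that of Otc ran from 0.324 to 0.417. At ZT10 and ZT14, where the Slc25a15 ratio was above 1, the highest cdHFD liver was a discordant library.

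In all, 8 of 8 genes were called lower in each genotype, where 27.0% of all genes tested were called lower and 28.7% higher in Hep-Bmal1WT, and 29.6% lower and 32.4% higher in Hep-Bmal1KO. The median log2 difference over the 8 genes was -1.16 in Hep-Bmal1WT and -1.21 in Hep-Bmal1KO, against 0.0135 and 0.023 over all genes. All 24 cdHFD livers lay below all 24 NC livers for 1 of the 8 genes in Hep-Bmal1WT (Otc) and for 3 in Hep-Bmal1KO (Otc, Ass1, and Asl), as did 1.54% and 2.55% of all genes. Without the discordant libraries all 8 genes were called lower in both genotypes again. Scaling by library totals in place of TMM moved the median of all genes to 0.499 and 0.501, and lower genes then made up 11.2% and 14.0% of the calls in place of 48.5% and 47.8%. Under that scaling 5 genes in Hep-Bmal1WT (Cps1, Otc, Ass1, Asl, and Arg1) and 7 in Hep-Bmal1KO (all but Slc25a13) were called lower.

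**Figure D2:**
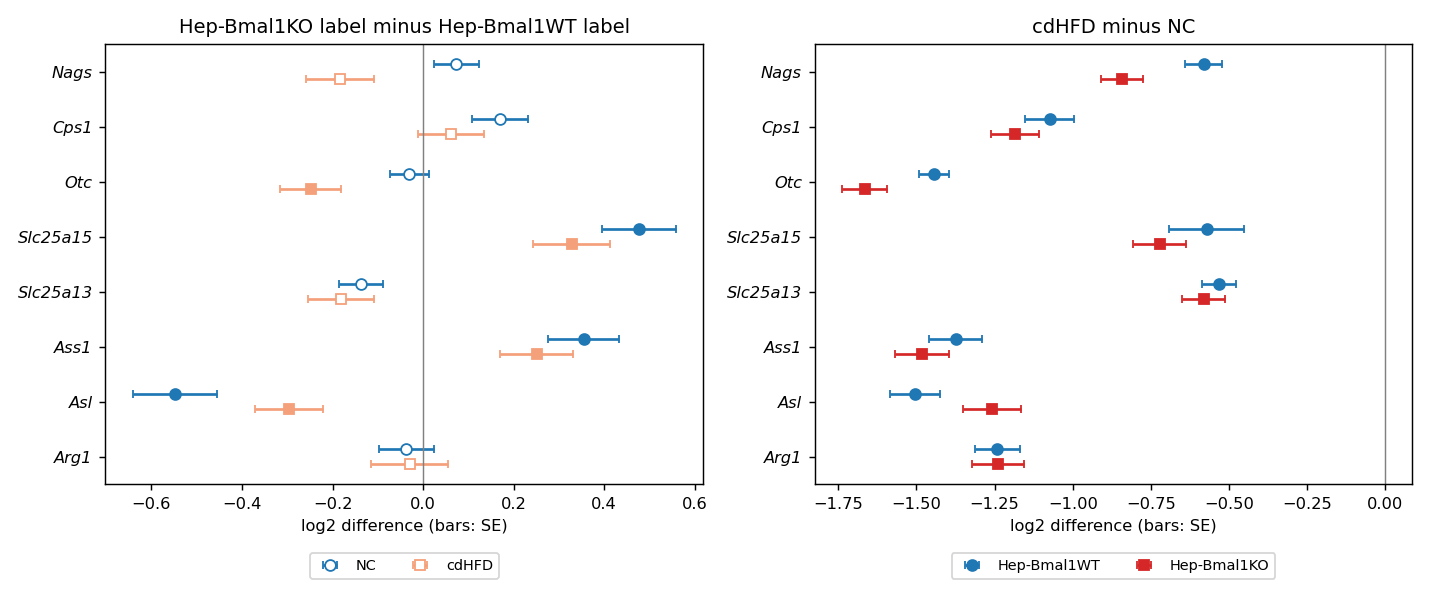
Log2 difference (x axis, error bars are SE) of each gene between genotype labels on each diet (left) and between diets in each genotype (right). Filled symbols passed an adjusted p of 0.05 in edgeR and open symbols did not. All 8 genes lie left of 0 for diet, from -1.67 for Otc to -0.53 for Slc25a13, and Asl and Slc25a15 lie on opposite sides of 0 for genotype.

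The mix of liver RNA also moved with diet. In bulk tissue fewer hepatocytes and less RNA per hepatocyte cannot be told apart. Of 7 macrophage markers tested, 7 rose in each genotype, and their summed level ranged from 210 to 555 CPM on NC and from 977 to 2495 CPM on cdHFD in Hep-Bmal1WT. Of 8 stellate cell and fibroblast markers, 7 rose in Hep-Bmal1WT and 8 in Hep-Bmal1KO, with sums of 182 to 429 CPM on NC and 543 to 1112 CPM on cdHFD in Hep-Bmal1WT. Of 7 hepatocyte markers tested, 6 fell (among them Alb, Ttr, and Apob) and 1 rose (Hpx) in each genotype, and the sum ranged from 105000 to 214300 CPM on NC and from 61990 to 99560 CPM on cdHFD in Hep-Bmal1WT. None of these defining markers was at 0 in any library. Of 8 periportal markers that are not among the 8 genes, 5 fell (Gls2 among them, which is listed with the supply genes too) and 2 rose in each genotype, and of 10 pericentral markers 6 fell in each and 1, Axin2, rose in Hep-Bmal1KO. The median log2 difference over the hepatocyte markers tested was -1.12 in Hep-Bmal1WT and -0.788 in Hep-Bmal1KO. It was -1.3 and -0.941 over the periportal markers, and -0.529 and -0.928 over the pericentral markers. The part of these shifts in the fall of the urea cycle genes was not tested.

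Genes that feed the cycle mostly fell with it. Of 12 genes that supply ammonia, aspartate, or bicarbonate, 10 fell and none rose on cdHFD in each genotype, with a median log2 difference of -0.66 in Hep-Bmal1WT and -0.87 in Hep-Bmal1KO. The mitochondrial glutaminase Gls2, which frees ammonia from glutamine, averaged 359 ± 73.6 CPM on NC and 99.0 ± 19.5 CPM on cdHFD (SD, n = 24 each) in Hep-Bmal1WT, a log2 difference of -1.85 (SE 0.085, edgeR adjusted p = 1.13e-24). Car5a, the mitochondrial carbonic anhydrase that provides bicarbonate, averaged 104 ± 24.8 and 31.7 ± 7.74 CPM, a log2 difference of -1.68 (SE 0.0937, edgeR adjusted p = 2.31e-21). The cytosolic aspartate aminotransferase Got1 fell by 1.39 on the log2 scale (SE 0.153, edgeR adjusted p = 4.52e-11). The mitochondrial carriers Slc25a22 and Slc25a12 did not pass the test in either genotype. Of 5 genes that take up or store ammonia in glutamine or are pericentral, 3 fell (Glul, Oat, and Slc1a2) and 1 rose (Slc1a4) in each genotype. Oat makes glutamate from ornithine, and Glul makes glutamine.

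Among 13 genes of arginine, ornithine, and urea handling, 10 could be tested, and they split. In Hep-Bmal1WT 5 fell and 4 rose, and in Hep-Bmal1KO 4 fell and 4 rose. The second arginase, the mitochondrial Arg2, averaged 0.346 CPM on NC and was at 0 in 10 of 24 libraries in Hep-Bmal1WT, and it averaged 2.60 ± 1.54 CPM (SD, n = 24) with no library at 0 on cdHFD (edgeR adjusted p = 6.92e-10). Slc7a1, a cationic amino acid transporter, averaged 0.443 and 2.38 CPM (edgeR adjusted p = 3.67e-11). Nos2, the inducible nitric oxide synthase, which uses arginine, was at 0 in all 24 NC livers and averaged 0.400 CPM on cdHFD. These 3 rising genes were near the limit of detection on NC. Agmat and the glycerol and urea channel Aqp9 fell by 0.55 and 0.47 on the log2 scale (edgeR adjusted p = 1.01e-12 and 9.37e-09). Of 10 regulators of the cycle or of liver metabolism, 7 fell and none rose in Hep-Bmal1WT, and 6 fell and 1 rose in Hep-Bmal1KO. Hnf4a and Cebpa, liver transcription factors, fell by 0.81 (SE 0.0591) and 0.87 (SE 0.104) on the log2 scale in Hep-Bmal1WT, with edgeR adjusted p of 7.23e-17 and 4.42e-10. The glucagon receptor Gcgr fell by 0.25 (SE 0.0535, edgeR adjusted p = 6.97e-05).

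**Figure D3:**
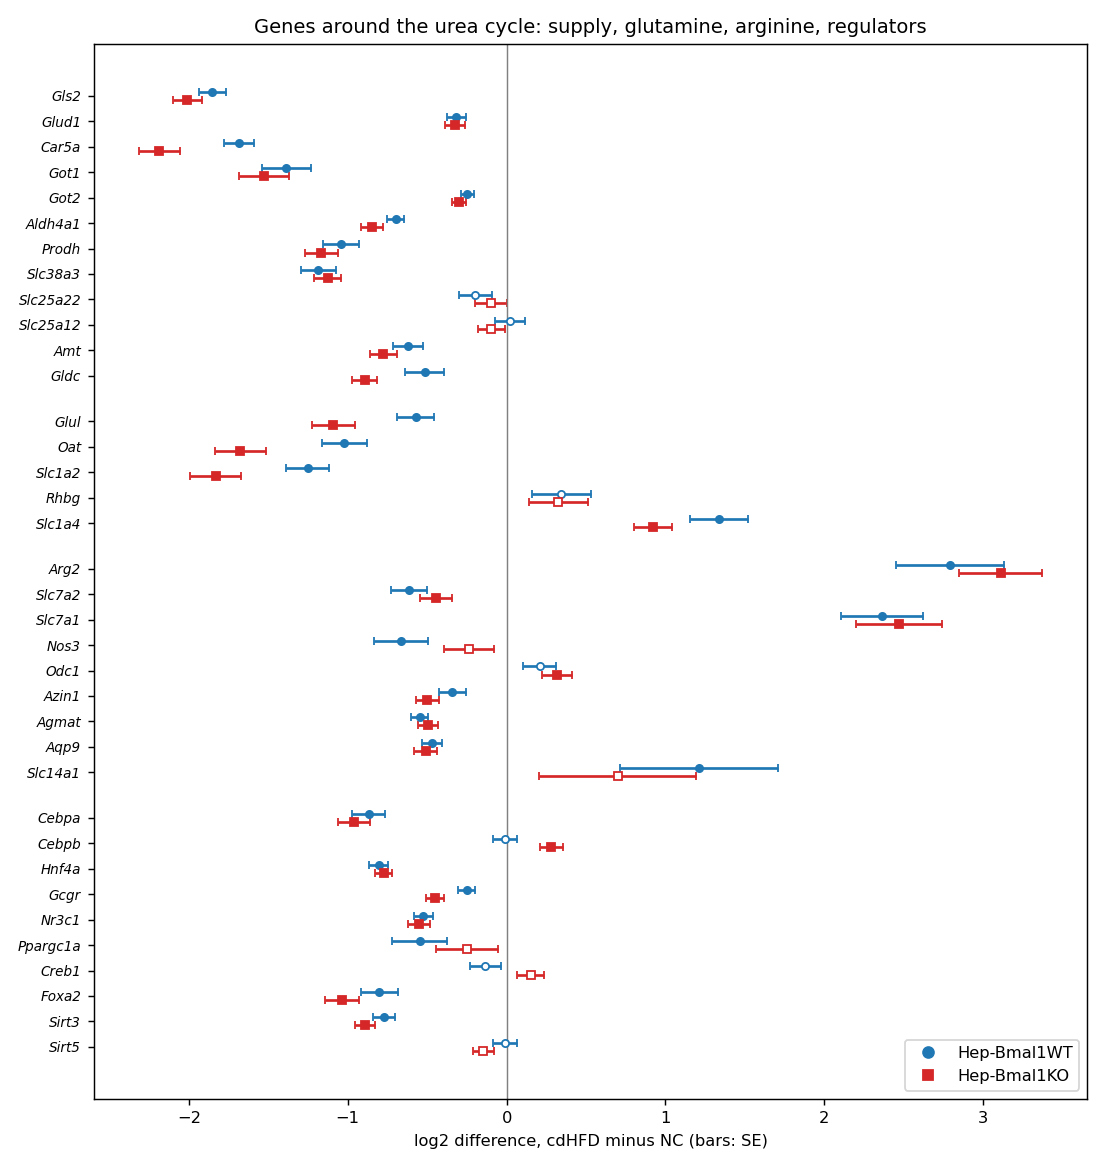
Log2 difference between cdHFD and NC (x axis, error bars are SE) for genes of ammonia supply, glutamine handling, arginine and urea handling, and regulation (blocks from top to bottom) in Hep-Bmal1WT (circles) and Hep-Bmal1KO (squares). Filled symbols passed an adjusted p of 0.05 in edgeR. The supply genes lie mostly left of 0, with Gls2 at -1.85 in Hep-Bmal1WT, and Arg2 and Slc7a1 lie right of 0. Nos2 is not drawn, since a fitted difference from a group at 0 is no measure of size.

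Genotype changed single steps of the cycle, in both directions. On NC, livers labelled Hep-Bmal1KO had less Asl and more Ass1 and Slc25a15. At ZT22 Asl was at 511, 533, 756, and 614 CPM in the 4 Hep-Bmal1WT livers and at 233, 297, 241, and 342 CPM in the 4 Hep-Bmal1KO livers. The groups did not overlap there or at ZT14, and they overlapped at the other ZTs, although the Hep-Bmal1KO mean was lower at all 6. The share of all genes without overlap at a single ZT was not counted, here or for the genes below. At ZT6 the means were close, 302 ± 54.8 against 285 ± 48.1 CPM (SD, n = 4 each). Across ZTs the log2 difference of Asl was -0.55 (SE 0.093, edgeR adjusted p = 3.13e-05), and -0.64 without the discordant libraries (edgeR adjusted p = 3.09e-07).

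Ass1, which makes the substrate of Asl, differed the other way. At ZT14 it was at 1601, 1960, 1854, and 2225 CPM in Hep-Bmal1WT and at 3131, 3472, 3587, and 3094 CPM in Hep-Bmal1KO. The groups did not overlap at ZT2, ZT10, and ZT14, and the Hep-Bmal1KO mean was 1.74 times the Hep-Bmal1WT mean at ZT14 but 0.986 and 0.94 times at ZT18 and ZT22. The log2 difference across ZTs was 0.35 (SE 0.0791, edgeR adjusted p = 0.00134), and 0.38 without the discordant libraries (edgeR adjusted p = 0.000161). In females alone it was 0.36 and did not pass (edgeR adjusted p = 0.0816).

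The mean of Slc25a15 was higher in Hep-Bmal1KO at all 6 ZTs, but the livers of both genotypes overlapped at 5 of them, and the means were close at ZT22, with a ratio of 1.09. At ZT14 it was at 140, 163, 216, and 218 CPM in Hep-Bmal1WT and at 318, 336, 289, and 298 CPM in Hep-Bmal1KO, without overlap. At ZT10 the overlap came from a discordant Hep-Bmal1KO library at 109 CPM, the other 3 being at 190, 207, and 215 CPM against 97.7 to 121 CPM. The log2 difference was 0.48 (SE 0.0822, edgeR adjusted p = 4.27e-05), and 0.56 without the discordant libraries (edgeR adjusted p = 3.17e-07). In females alone it was 0.344 and did not pass (edgeR adjusted p = 0.0768).

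The other 5 genes did not pass the test on NC. Cps1 differed by 0.17 (log2, SE 0.0619, edgeR adjusted p = 0.063) and Slc25a13 by -0.14 (SE 0.0483, edgeR adjusted p = 0.0525). Without the discordant libraries both were called, at 0.20 (edgeR adjusted p = 0.0196) and -0.18 (edgeR adjusted p = 0.006). Otc differed by -0.03 (SE 0.0428), Arg1 by -0.04 (SE 0.0606), and Nags by 0.07 (SE 0.0499). With library totals in place of TMM, the first 2 of these turned to 0.03 and 0.02. Groups were also apart at single ZTs for genes not called, and the share of all genes apart in this way was not counted. At ZT10 the Hep-Bmal1KO livers were higher for Cps1 and Nags, with ratios of the means of 1.41 and 1.21. At ZT22 they were lower for Otc, with a ratio of 0.803. In all, 1 of 8 genes was called lower and 2 higher on NC, where 5.61% of all genes were lower and 7.0% higher. With library totals, lower genes made up 24.1% of all calls in place of 44.5%.

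On cdHFD the same directions were seen for Asl, Ass1, and Slc25a15. Asl averaged 172 ± 39.97 CPM in Hep-Bmal1WT and 141 ± 33.2 CPM in Hep-Bmal1KO (SD, n = 24 each, ZTs pooled), with a log2 difference of -0.30 (SE 0.0752, edgeR adjusted p = 0.00629). Ass1 averaged 868 ± 238 and 1036 ± 292 CPM, a difference of 0.25 (SE 0.0808, edgeR adjusted p = 0.0365). Slc25a15 averaged 135 ± 51.8 and 169 ± 50.5 CPM, a difference of 0.33 (SE 0.0846, edgeR adjusted p = 0.00734). Their ranges over the day overlapped, and of these 3 genes the groups were apart at ZT18 for Asl and Slc25a15 and at no ZT for Ass1. For Nags, which was not called, the groups were apart at ZT22, with a Hep-Bmal1KO mean 0.79 times the Hep-Bmal1WT mean.

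Otc was the fourth gene called on cdHFD. At ZT22 it was at 315, 288, 298, and 304 CPM in Hep-Bmal1WT and at 199, 209, 236, and 265 CPM in Hep-Bmal1KO. The groups did not overlap at ZT18 and ZT22, and at ZT2 the means were 292 CPM in each. The log2 difference was -0.25 (SE 0.0677, edgeR adjusted p = 0.0114). Thus 2 of 8 genes were lower and 2 higher on cdHFD, where 4.99% of all genes were lower and 4.62% higher. The study names the urea cycle among pathways of genes with a lower mean level in this comparison, so the lower genes are not independent evidence of a direction. By the mesor of CircaCompare at an unadjusted p under 0.05, the kind of test the study used, 4 genes were lower (Otc, Asl, Nags, and Slc25a13) and 2 higher (Ass1 and Slc25a15). By that rule 3280 of all 15548 genes were called, 1342 of them lower. It was run here on every gene tested, whereas the study compared genes first called rhythmic in at least 1 group. Without the discordant libraries the 4 genes called by edgeR were called again, at -0.28 for Otc, -0.34 for Asl, 0.31 for Ass1, and 0.44 for Slc25a15. Without replicate 2, however, none of the 4 passed the test, without replicate 1 only Asl and Slc25a15 did, without replicate 3 Ass1 did not, and without replicate 4 Asl did not. Ass1 thus passed in 1 of these 4 leave-outs, Otc and Asl in 2 each, and Slc25a15 in 3. In males alone only Asl did, and in females alone none did. With library totals, lower genes made up 33.4% of all calls in place of 51.9%.

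Whether the genotype difference depended on diet was tested with an interaction term over all 96 livers. None of the 8 genes passed in edgeR, with 3 at an unadjusted p under 0.05 (Otc, Asl, and Nags), and DESeq2 called none either, while 2.00% of all genes were called lower and 1.04% higher. The term was -0.22 for Otc (log2, SE 0.082, edgeR adjusted p = 0.134), 0.25 for Asl (SE 0.122, edgeR adjusted p = 0.281), and -0.26 for Nags (SE 0.0906, edgeR adjusted p = 0.104). With library totals Otc passed, at -0.24 (edgeR adjusted p = 0.0264). These terms share their libraries with the comparisons within each diet.

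Markers and neighbours moved with genotype too. Alb, a hepatocyte marker, differed by -0.83 on NC (log2, SE 0.145, edgeR adjusted p = 5.74e-05) and by -0.28 on cdHFD (SE 0.0631, edgeR adjusted p = 0.00175), and the other 6 hepatocyte markers tested did not pass on either diet. On NC none of 7 macrophage or 8 stellate cell markers passed, and 2 of 5 cholangiocyte markers were higher (Sox9 and Spp1). On cdHFD 6 of 8 stellate cell markers were higher, with sums of 543 to 1112 CPM in Hep-Bmal1WT and 521 to 1672 CPM in Hep-Bmal1KO, 3 of 5 cholangiocyte markers were higher, and 1 of 7 macrophage markers was higher and 1 lower. Of 8 periportal markers, 1 was lower on NC (Hsd17b13) and 2 on cdHFD (Cyp2f2 and Hsd17b13), and none was higher. Of 10 pericentral markers, 2 were lower (Slc1a2 and Rhbg) and 3 higher (Oat, Gulo, and Cyp2c29) on NC, and 3 were lower (Glul, Slc1a2, and Rhbg) and none higher on cdHFD. Cyp2f2 differed by -0.83 on cdHFD (SE 0.119, edgeR adjusted p = 3.78e-06). The part of these differences in those of the urea cycle genes was not tested. Of the 12 supply genes, 3 were higher (Glud1, Got1, and Gldc) and 1 lower (Slc38a3) on NC, and 2 were higher (Glud1 and Got1) and 2 lower (Car5a and Slc38a3) on cdHFD. Got1 differed by 0.75 on NC (SE 0.155, edgeR adjusted p = 0.000545). Of the 5 genes of glutamine and pericentral uptake, 2 were lower (Slc1a2 and Rhbg) and 2 higher (Oat and Slc1a4) on NC, and 3 were lower (Glul, Slc1a2, and Rhbg) and 1 higher (Slc1a4) on cdHFD. The glutamate transporter Slc1a2 differed by -0.45 on NC (SE 0.121, edgeR adjusted p = 0.00857) and by -1.02 on cdHFD (SE 0.163, edgeR adjusted p = 2.15e-05), and Glul by -0.64 on cdHFD (SE 0.122, edgeR adjusted p = 0.000262). Oat, the ornithine aminotransferase, averaged 705 ± 205 CPM in Hep-Bmal1WT and 1371 ± 414 CPM in Hep-Bmal1KO on NC (SD, n = 24 each), a log2 difference of 0.95 (SE 0.115, edgeR adjusted p = 1.13e-07). On cdHFD Oat differed by 0.30 (SE 0.174, edgeR adjusted p = 0.313), and the diet dependence did not pass (edgeR adjusted p = 0.0841). Of the 10 regulators, 3 were lower (Cebpa, Cebpb, and Hnf4a) and 1 higher (Sirt5) in Hep-Bmal1KO on NC. On cdHFD 3 were lower (Cebpa, Hnf4a, and Gcgr) and none higher.

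Rhythms were tested in each group of 24 livers as a joint cosine and sine term with a period of 24 hours. In Hep-Bmal1WT on NC, 5 of 8 genes were rhythmic (Cps1, Ass1, Asl, Arg1, and Slc25a15), where 19.1% of all genes were. Their fitted peaks all fell in the dark phase. They lay at ZT 13.7 ± 0.995 (SE) for Arg1 and ZT 18.3 ± 0.908 for Asl. Those of Slc25a15, Cps1, and Ass1 lay at ZT 21.5 ± 0.827, 21.6 ± 0.884, and 21.9 ± 0.897. The Arg1 mean itself was highest at ZT10, in the light phase, at 990 ± 117 CPM against 900 ± 113 CPM at ZT14 (SD, n = 4 each). The fitted change from trough to peak was 1.94-fold for Slc25a15 (edgeR adjusted p = 0.00534) and 1.36-fold for Arg1 (edgeR adjusted p = 0.0337). The deepest dip was shared by Cps1, Ass1, and Slc25a15 at ZT10, where Cps1 averaged 879 ± 113 CPM against 1964 ± 238 CPM at ZT22 (SD, n = 4 each). Asl and Arg1 were instead lowest at ZT6. Otc was the flattest, with an amplitude of 0.0941 ± 0.0377 (SE, variance-stabilized units). The cosinor F test called 7 of 8 there (Nags and Slc25a13 too), and 2640 of all 15548 genes. The same 5 genes were called by edgeR without the discordant libraries, but with edgeR leaving out 1 replicate left 0 (replicate 3) to 3 (replicate 1) of them.

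In Hep-Bmal1KO on NC, edgeR called none of the 8 genes rhythmic, with 3 at an unadjusted p under 0.05 (Cps1, Otc, and Slc25a15), where 4.34% of all genes were called. The cosinor F test and JTK_CYCLE, a rank test of rhythm taken at an unadjusted p under 0.01, each called Otc. They called 340 and 576 of all 15548 genes. The amplitude of Ass1 was 0.379 ± 0.0889 in Hep-Bmal1WT and 0.0468 ± 0.0922 in Hep-Bmal1KO, and that of Asl was 0.381 ± 0.0906 and 0.0472 ± 0.11 (SE, n = 24 each). Cps1, Ass1, and Slc25a15 were lowest at ZT10 in Hep-Bmal1KO as well. Cps1 averaged 1240 ± 85.7 CPM there against 2315 ± 393 CPM at its highest ZT, Ass1 2093 ± 476 against 3385 ± 668 CPM, and Slc25a15 180 ± 48.97 against 324 ± 44.8 CPM (SD, n = 4 each). The difference in rhythm itself, tested as a term of genotype with cosine and sine, passed for none of the 8 genes, with 4 at an unadjusted p under 0.05 (Otc, Ass1, Asl, and Nags) and an edgeR adjusted p of 0.518 at the lowest, where 0.392% of all genes passed. DESeq2 called none as well. A loss of rhythm in Hep-Bmal1KO is thus not shown for any of these genes at this sample size.

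On cdHFD 5 of 8 genes were rhythmic in Hep-Bmal1WT (Cps1, Ass1, Arg1, Nags, and Slc25a15), where 14.6% of all genes were, and 3 in Hep-Bmal1KO (Asl, Arg1, and Slc25a15), where 3.83% were. Without the discordant libraries 4 were called in Hep-Bmal1WT (not Nags) and 2 in Hep-Bmal1KO (not Asl), and with edgeR leaving out replicate 1 left 1 in Hep-Bmal1WT (Ass1), while leaving out replicate 2 left none and replicate 3 left 1 (Slc25a15) in Hep-Bmal1KO. Slc25a15 peaked at ZT 16.3 ± 0.818 in Hep-Bmal1WT and ZT 16.1 ± 0.705 in Hep-Bmal1KO (SE, edgeR adjusted p = 0.00145 and 0.00263), with amplitudes of 0.469 ± 0.1 and 0.415 ± 0.0767. Arg1 had fitted peaks at ZT 12.4 ± 1.09 and ZT 13.1 ± 1.02, and its highest mean was at ZT10 in both. The genotype difference in rhythm passed for none of the 8 genes, with none at an unadjusted p under 0.05 in edgeR and none called by DESeq2, where 0.424% of all genes passed. For Slc25a15 the amplitude differed by -0.0533 ± 0.126 and the peak by -0.225 ± 1.1 hours (SE).

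**Figure D4:**
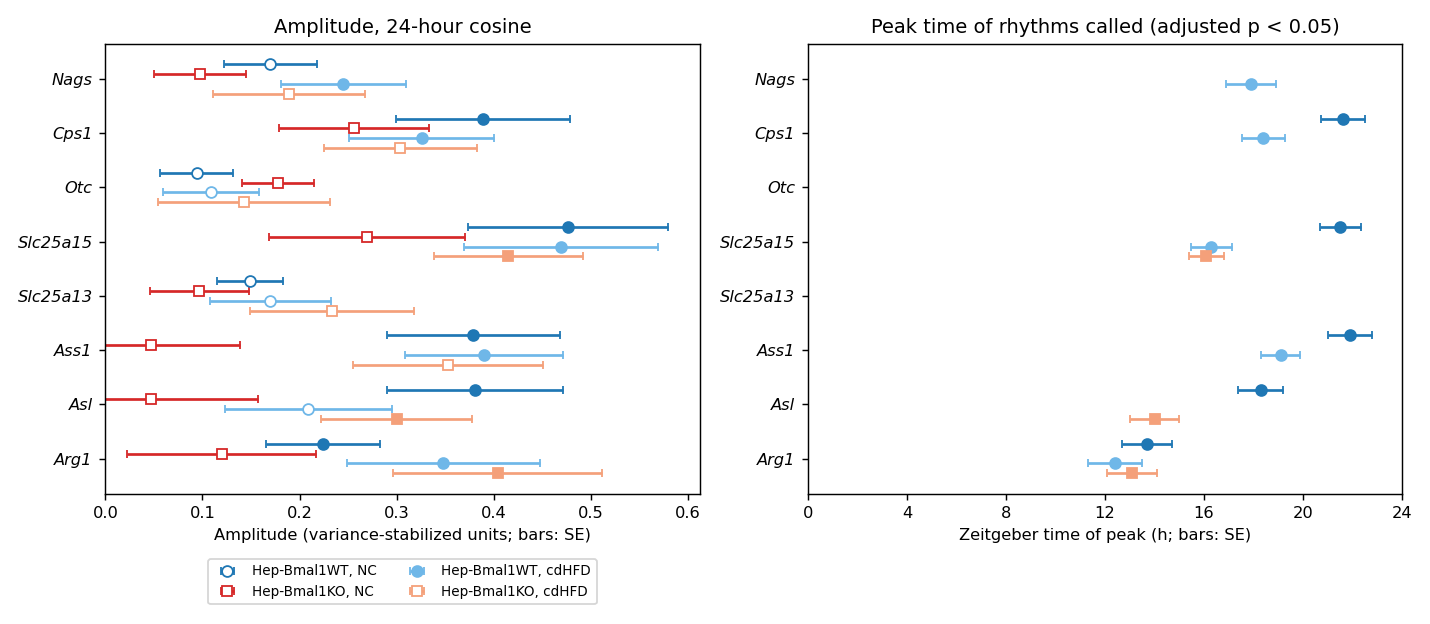
Amplitude of the fitted 24-hour cosine (left, variance-stabilized units) and Zeitgeber time of its peak (right, hours) for each gene in the 4 groups, with SE bars. Filled symbols passed an adjusted p of 0.05 in edgeR, and peaks are drawn only for those. The peak of Slc25a15 lies at ZT 21.5 on NC and at ZT 16.3 on cdHFD in Hep-Bmal1WT, and the amplitudes of Ass1 and Asl are lowest in Hep-Bmal1KO on NC.

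The diet difference in rhythm passed for 1 of 8 genes in Hep-Bmal1WT, Slc25a15 (edgeR adjusted p = 0.00854), where 6.19% of all genes passed. Its peak shifted by -5.23 ± 1.16 hours on cdHFD (SE), that is to an earlier time, and its amplitude differed by -0.00879 ± 0.144. The lowest mean moved from 107 ± 10.4 CPM at ZT10 on NC to 88.2 ± 17.2 CPM at ZT6 on cdHFD (SD, n = 4 each). At ZT10 and ZT14 the mean of Slc25a15 was higher on cdHFD than on NC, unlike at the other 4 ZTs. At ZT14 this rested on a discordant library at 317 CPM. The other 3 cdHFD livers were at 118, 146, and 183 CPM there, against 140 to 218 CPM on NC. At ZT10 the highest cdHFD liver, at 179 CPM, was a discordant library too. The other 3 were at 123, 96.7, and 124 CPM, against 97.7 to 121 CPM on NC. The term was called without the discordant libraries, and it was not called when replicate 1 or replicate 3 was left out. The peak of Arntl itself shifted by -4.66 ± 0.503 hours on cdHFD in Hep-Bmal1WT. Of the other genes rhythmic on both diets there, the peak shifted by -3.21 ± 1.26 hours for Cps1, by -2.85 ± 1.2 hours for Ass1, and by -1.25 ± 1.65 hours for Arg1 (SE), and their diet terms did not pass (edgeR adjusted p = 0.29, 0.25, and 0.689). In Hep-Bmal1KO none of the 8 genes passed, with 5 at an unadjusted p under 0.05 in edgeR and none called by DESeq2, where 0.907% of all genes passed.

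Sex was compared within groups. Otc and Asl were lower in males, with differences of -0.11 (SE 0.0379) and -0.17 (SE 0.0539) on the log2 scale (edgeR adjusted p = 0.0339 and 0.0219), so that 2 of 8 genes were lower and none higher, where 8.99% of all genes were lower and 8.24% higher. Without the discordant libraries Slc25a15 and Slc25a13 were called lower too, and with any of replicates 2, 3, or 4 left out none of the 8 was called.

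Over the 24 means of genotype, diet, and ZT, the 8 genes moved together. Pearson's r between pairs ran from 0.532 (Asl with Slc25a15) to 0.97 (Cps1 with Ass1), values that hold the diet difference common to all. Within groups, after each group's mean was taken away, r over the 96 livers was 0.67 for Ass1 with Slc25a15 and -0.00958 for Otc with Slc25a15. These points share library depth and scaling. Among 6904 genes with a mean of at least 10 CPM, those whose profile over the 24 means was most like the mean profile of the 8 genes were Acly (r = 0.98, rho = 0.932), Serpina3k (r = 0.98, rho = 0.933), Echdc1 (r = 0.979, rho = 0.908), Aass (r = 0.979, rho = 0.9), and Timd2 (r = 0.977, rho = 0.929). The 8 genes themselves ranked between 45 (Nags) and 1268 (Slc25a15) in that order.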

How the data were processed

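Livers of 96 mice were profiled by BRB-seq. The authors deposited raw counts per gene. The submitters' processing notes name STAR, HTSeq, featureCounts, DESeq2, and mm10, without versions. Whether molecular identifiers were collapsed is not given in the sources used here, so the precision that depth gives covers counting error only. 5 entries for unassigned reads held 22.6% to 39.9% of the counts in each library and were left out of the totals.

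Genes with at least 100 counts in sum (15548) were tested with edgeR 4.0.16 (R 4.3.3, quasi-likelihood, TMM, Benjamini-Hochberg over all of them, threshold 0.05). Genotype was compared within diet and diet within genotype, with ZT as a covariate, genotype by diet over all 96 livers, and differences in rhythm over the 48 livers of a diet or genotype. Rhythm was a cosine and sine term with a period of 24 hours. Amplitudes, peaks, and their SE came from cosinor fits to variance-stabilized counts (DESeq2 1.42.0). Alternatives were other scalings, filters, and tests, sex, each replicate left out, and discordant libraries left out. The tests were checked on simulated data. The p-values set each difference against the variation between mice that its model left. They do not account for mouse number range or plate column.

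The 8 genes and all lists were chosen with earlier results of these data known. The genes named are the 8, the 5 most alike in profile, and members of the lists. Replicate numbers follow deposition order and pair no mice, but they go with sex. On NC replicates 1 and 2 were male and 3 and 4 female. On cdHFD the order was the same except that it was reversed at ZT2 and that replicate 3 of Hep-Bmal1WT at ZT14 was male. Leaving out a replicate thus also changes the balance of the sexes. Hep-Bmal1WT on cdHFD held 13 males and 11 females, and each other group 12 of each. A promoter search was planned and not run, since no promoter sequence was used here.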

Additional observations from a re-analysis of the deposited data

Results flagged for a closer look

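In 5 of 192 sets of 4 livers (1 gene, genotype, diet, and ZT each), the highest or lowest liver stood farther from the other 3 than Dixon's 95% critical value for the gap divided by the range. Chance gives about 1 in 20 such sets, and none of the 5 livers was a discordant library. In Hep-Bmal1WT on cdHFD, Cps1 at ZT22 was at 673 CPM in replicate 3 against 853 to 872 CPM in the others (gap ratio 0.906), and Slc25a15 at ZT6 was at 114 CPM in replicate 4 against 77.4 to 82.8 CPM (0.851). In Hep-Bmal1WT on NC, Nags at ZT2 was at 70.1 CPM in replicate 3 against 74.7 to 75.6 CPM (0.831). In Hep-Bmal1KO, Ass1 at ZT10 on NC was at 2802 CPM in replicate 4 against 1792 to 1913 CPM (0.88), and Arg1 at ZT14 on cdHFD was at 528 CPM in replicate 3 against 376 to 398 CPM (0.859).

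The rhythm of Slc25a15, the ornithine carrier, differed between the diets in Hep-Bmal1WT by a test of the difference itself (edgeR adjusted p = 0.00854), with a peak shift of -5.23 ± 1.16 hours on cdHFD, to an earlier time (SE, n = 24 per diet). Without the discordant libraries the fitted peaks lay at ZT 21.6 ± 0.845 on NC and ZT 17.3 ± 0.692 on cdHFD (SE, n = 22 each). The term was still called then, but not when replicate 1 or replicate 3 was left out.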

How the results depend on the processing

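Of 560 values of single genes under the alternatives, 493 kept their direction and side of the threshold, 28 fell below it, 19 rose above it, and 20 changed sign. The diet counts of 8 lower genes held in both genotypes with any replicate left out (8 to 8), and library totals left 5 in Hep-Bmal1WT. For genotype on NC (3 genes), a filter of 10 counts in 24 libraries, DESeq2, and leaving out the discordant libraries each called 5, females alone 1 (Asl), and leaving out a replicate 3 to 4. On cdHFD (4 genes), males alone called 1, females alone 0, leaving out a replicate 0 to 3, and the CircaCompare mesor at an unadjusted p under 0.05 called 6. That mesor test called 3280 of all 15548 genes. The genotype by diet term (0 genes) called 1 with library totals and 0 without any replicate.

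Leaving out a replicate gave 0 to 3 rhythmic genes in Hep-Bmal1WT on NC, 1 to 4 on cdHFD, and in Hep-Bmal1KO 0 on NC and 0 to 2 on cdHFD. In Hep-Bmal1WT the cosinor F test called 7 on NC and 4 on cdHFD, against 2640 and 1921 of all 15548 genes. JTK_CYCLE, at an unadjusted p under 0.01, called 5 and 4, against 1593 and 1287 of all genes. In Hep-Bmal1KO the cosinor F test called 1 on each diet, against 340 of all genes on NC and 360 on cdHFD. JTK_CYCLE called 1 on NC and 2 on cdHFD, against 576 and 558 of all genes. At an unadjusted p under 0.01, edgeR called 2 on NC and 5 on cdHFD, against 1401 and 1316 of all genes. At an unadjusted p under 0.05, CircaCompare amplitudes called 2 for genotype by rhythm on NC, 0 for diet by rhythm in Hep-Bmal1WT, where leaving out a replicate gave 0 to 1, and 1 in Hep-Bmal1KO. Of all genes, the CircaCompare amplitudes called 640, 1238, and 662 in these comparisons. For sex (2 genes), leaving out the discordant libraries called 4 and leaving out a replicate 0 to 1.

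The values that changed sign had not passed the test. With library totals, the genotype difference became 0.0334 for Otc and 0.0246 for Arg1 on NC and 0.0217 for Arg1 on cdHFD, which was 0.0681 in females. The genotype by diet term of Arg1 became -0.0027 with library totals, -0.00051 without a filter, -0.0033 with sex, -0.12 in males, and -0.0030 without the discordant libraries. That of Slc25a15 became 0.0120 in females and that of Slc25a13 0.0495 in males. Leaving out a replicate spread the cdHFD genotype difference from -0.0241 to 0.145 for Cps1 and from -0.156 to 0.0491 for Arg1. It spread the genotype by diet term from -0.201 to 0.0155 for Cps1, -0.0942 to 0.106 for Arg1, and -0.25 to 0.0028 for Slc25a15, and the sex difference of Nags from -0.0063 to 0.0080. The cause of these changes was not tested.

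Depth limits genes of a few counts per library, such as Arg2 and Nos2, more than the 8 genes. No paired analysis was possible because the replicate numbers were given in deposition order and the mice of different groups share none in the labels.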
